A study of Mus musculus with 12 samples.

Results

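Interferon-stimulated genes and the STAT and IRF transcription factors were followed in mouse T cells of 2 genotypes, WT and a conditional knockout of PERK (a kinase of the unfolded protein response), under 2 kinds of stimulation. Members were protein-coding genes with a symbol that starts with Ifi, Isg, Oas, Irf, Stat, Gbp, Irgm, Iigp, Gvin, Mx1, Mx2 or Trim30, without Trim30d and Ifi213, and with at least 10 placed counts over the 12 libraries. Placed counts are the deposited counts of table entries whose printed exon positions lay on the exons of exactly 1 gene of GRCm38 (GENCODE M21) by at least 50 bp, summed under that gene. The entries are listed under gene names of another build, so if the reads were aligned to that build these counts belong to the listed genes instead (those given here for Gbp6, for example, are listed under Gbp4), and the placement was not tested on reads. Of 84 genes with such a symbol, 25 were members, out of 5906 genes with at least 10 placed counts in the whole table. Another 2 were left out by name, 2 held fewer than 10 counts (Ifi27l2b and Oas1e), and 55 had no placed entry and are not described here. The base is thin for some members. Ifi47 rests on 50 bp of exon in an entry 14.5% inside the gene, and Stat5a on an entry 25% inside. Gbp6, Stat5b and Stat3 rest on entries 53.1%, 60.2% and 70.1% inside. Most counts of Ifi214 and Ifi208 came from entries 24.5% and 50.3% inside. Here and below, shares inside a gene count its introns as well as its exons. Only 0.825% (Ifi47) to 6.91% (Stat5b) of the entries just named lay on exons of the gene. Those 55 include Stat2, Stat4, Irf1, Irf7, Irf9, Isg15, Mx1, Ifit1, Ifit3, Irgm1 and Gbp2, so the values below are those of an incomplete set.

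Splenic T cells were WT or PERK-cKO, the latter from mice on the B6 background that carried PERK fl/fl alleles and CD4-Cre, a Cre that is active in T cells from the stage at which CD4 is expressed. Cultures ran for 4 days with antigen-presenting cells (APCs) of an allogeneic strain, or with anti-CD3 and anti-CD28 for 3 days as the labels have it, whereas the description of the RNA-Seq in the study has the same duration for both. Each of the 4 groups had 3 bulk RNA-Seq libraries. The strain of the APCs used for these libraries, whether the WT mice carried CD4-Cre, and whether replicates were separate mice or cultures are not given in the sources used here, so p-values measure only the spread between these samples, which may be technical.

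Type I interferons (IFN-α and IFN-β) and type II interferon (IFN-γ) bind receptors on the cell surface, and the JAK kinases attached to those receptors phosphorylate STAT proteins. STAT complexes, together with IRF proteins, then bind the interferon-stimulated response element or the gamma-activated site in the promoters of interferon-stimulated genes, many of which encode antiviral enzymes and GTPases. In T cells, STAT5 and STAT3 also carry the signals of IL-2 and IL-6, and activated T cells are themselves a source of IFN-γ.

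Sequences upstream of the members were read first, because the members fall into families of neighbouring genes and the letters show what those families share. RefSeq (GRCm38.p6) gave 27 promoters, from 250 bases before to 50 after the transcription start, for 20 of the 25 members, and none for Gbp4, Gbp6, Ifi204, Iigp1 and Oas2. The response element was searched on both strands as TTTC, any 2 bases, TTTC, and the gamma-activated site as TTCNNNGAA. The first was found in 12 of 27 member promoters (44.4%) and 11 of 20 members, against 1131 of all 32851 promoters (3.44%) and 129 of 3144 genes that entered a test (4.1%). The second was found in 5 of 27 (18.5%) and 5 of 20 members, against 2726 of all promoters (8.3%) and 249 of the tested genes (7.92%). Members were named for interferon response, so the first contrast is a description of the list. Windows of 25 bases on either side of a response element match, all upstream of the annotated start, are printed 5′ to 3′ on the gene's strand with the match in capitals, for the IFI200 genes, Oas3, Irgm2, Gbp2b and Ifit1bl1, since these are the members with a match whose levels differed between genotypes after allogeneic stimulation.
Ifi207 (chr1:173741816-173741875, minus strand): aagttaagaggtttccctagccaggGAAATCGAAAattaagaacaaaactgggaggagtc
Ifi208 (chr1:173673582-173673641, plus strand): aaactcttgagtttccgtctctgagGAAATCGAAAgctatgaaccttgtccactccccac
Ifi214 (chr1:173536002-173536061, minus strand): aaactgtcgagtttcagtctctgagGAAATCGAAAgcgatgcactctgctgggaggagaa
Ifi211 (chr1:173913049-173913108, minus strand): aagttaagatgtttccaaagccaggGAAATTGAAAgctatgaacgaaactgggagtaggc
Oas3 (chr5:120777700-120777759, minus strand): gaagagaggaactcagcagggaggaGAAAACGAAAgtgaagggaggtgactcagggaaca
Irgm2 (chr11:58214888-58214947, plus strand): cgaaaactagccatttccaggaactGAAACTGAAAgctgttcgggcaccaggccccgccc
Gbp2b (chr3:142594685-142594744, plus strand): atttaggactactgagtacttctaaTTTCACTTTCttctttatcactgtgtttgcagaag
Ifit1bl1 (chr19:34602038-34602097, minus strand): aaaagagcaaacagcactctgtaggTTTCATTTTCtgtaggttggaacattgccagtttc
The same 10 letters, GAAATCGAAA, stood in the promoters of Ifi203, Ifi207, Ifi208 and Ifi214, and in 16 of all 32851 promoters (0.0487%). In Ifi203 the match lay before 1 of its annotated starts and after the other. Ifi211 differed from them within the 2 free bases. In the IFI200 genes the match began 35 to 79 bases before the start. Gamma-activated sites were found in the promoters of Irf8, Irf2, Irgm2, Trim30c and Ifit2, and Irf8 held a pair of them, shown here with the first in capitals.
Irf8 (chr8:120736162-120736220, plus strand): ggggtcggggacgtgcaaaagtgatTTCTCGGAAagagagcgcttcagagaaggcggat
Trim30c (chr7:104400807-104400865, minus strand): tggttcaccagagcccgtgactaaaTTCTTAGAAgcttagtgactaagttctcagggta
Neither pattern was in the windows of Stat3, Stat5a, Stat5b, Oasl2, Isg20l2 and Ifi47. A match is a string of letters and not a measured binding site.

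**Figure D1:**
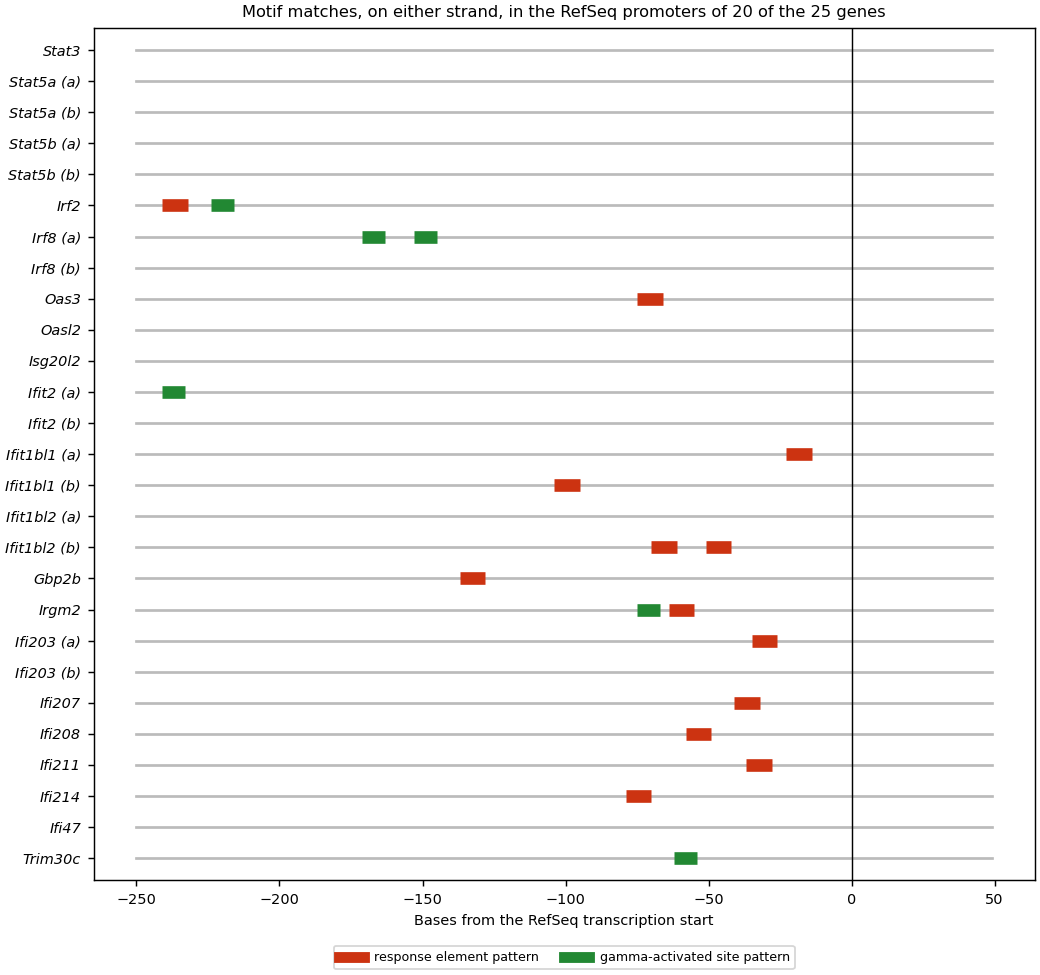
Position of the response element and gamma-activated site patterns in the RefSeq promoters of the members, with distance from the transcription start in bases on the x axis and 1 row per promoter (a and b where a gene had several). In the IFI200 genes the response element match lay within 79 bases of the start, whereas the pair of gamma-activated sites in Irf8 began 171 and 153 bases before it.

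Total counts were 3132702 to 4631908 per library, of which 1568431 to 2327503 were placed, so that 0 counts in a library allow up to 3 counts. Levels are given as CPM, the placed counts scaled by library size and TMM factors, and compare libraries, not genes. Eif2ak3, which encodes PERK, was at 91.3 to 106 CPM in WT and 66.4 to 73.6 CPM in PERK-cKO libraries after allogeneic stimulation, and at 44.1 to 79.8 and 45.3 to 51.0 CPM after polyclonal stimulation, over exons 2, 3, 7, 14 and 15 of 19, and which exons were deleted is not given in the sources used here. Y-linked genes held 3335 to 4716 counts in each WT allogeneic library and 0 in all 9 others, so the sex of the cells and the group cannot be told apart in any comparison with WT allogeneic T cells. One library, WT polyclonal 1, had 12.1% of its placed counts at Gm42418, a locus that overlaps ribosomal RNA, against 0.451% to 5.65% in the others. Only 4 of 14 T cell markers were placed (Thy1, Lck, Cd5 and Cd8b1), with a summed level of 3550 to 5821 CPM over all libraries, and Cd3e, Cd4, Cd8a and Trac were not among them.

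Markers of other cells differed between the groups. They are given here because most of their sums were highest in the PERK-cKO allogeneic libraries, as were the mean levels of 18 of the 25 members. After allogeneic stimulation, the summed level of macrophage and monocyte markers (4 of 14 placed) was 234 to 270 CPM in WT and 1603 to 1815 CPM in PERK-cKO libraries. After polyclonal stimulation it was 99.0 to 111 CPM in WT, with Lyz2 and C1qc at 0, and 105 to 138 CPM in PERK-cKO libraries, with Mrc1 at 0. Lyz2, which encodes the lysozyme of myeloid cells, was at 60.9, 45.3 and 57.0 CPM in WT allogeneic and 850, 1057 and 999 CPM in PERK-cKO allogeneic libraries. Dendritic cell markers (3 of 10 placed) summed to 1.76 to 7.92 CPM in WT and 45.4 to 61.4 CPM in PERK-cKO allogeneic libraries, B cell markers (2 of 10) to 89.9 to 118 and 192 to 222 CPM, and basophil and mast cell markers (4 of 6) to 46.4 to 55.4 and 893 to 918 CPM. In WT and then PERK-cKO polyclonal libraries the dendritic cell list summed to 7.88 to 9.95 and 5.64 to 7.15 CPM, the B cell list to 9.45 to 15.04 and 11.9 to 21.6 CPM, and the basophil and mast cell list to 3.48 to 6.74 and 25.95 to 28.2 CPM. Of these last, Fcer1a had 2, 1 and 0 counts in WT and 14, 12 and 12 in PERK-cKO polyclonal libraries, and Hdc 3, 4 and 12 and 31, 19 and 28 counts. NK cell markers (2 of 7 placed) summed to 0.528 to 1.76 and 2.43 to 8.57 CPM in WT and PERK-cKO allogeneic libraries, and to 0 to 1.99 and 9.74 to 11.3 CPM in the polyclonal ones, where Klrk1 had 0, 4 and 3 counts in WT and 24, 18 and 19 in PERK-cKO libraries. The part of these cells, which include the APCs of the allogeneic cultures, in the differences described below was not tested. In bulk libraries, fewer cells of a type and less RNA per cell cannot be told apart.

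The first comparison was PERK-cKO with WT T cells after allogeneic stimulation. Of 24 members tested with edgeR's quasi-likelihood test, 14 were called higher in the PERK-cKO group and 0 lower at a Benjamini-Hochberg adjusted p under 0.05, while over all 4093 genes tested 33% were called, 18.5% higher and 14.5% lower. Ifi207, Trim30c and Gbp2b entered the test through their PERK-cKO libraries, which sets their direction, so they lend the count no support. At an unadjusted p under 0.05, 17 members were higher and 0 lower, against 21.7% and 19.5% of all genes. These 17 include Ifi207, Trim30c and Gbp2b, and also Irf2, which entered the edgeR test through its PERK-cKO libraries too. DESeq2 called 12 higher and 0 lower, against 12.9% and 8.28%. The median log2 fold change of the members was 0.59 against -0.02 over all genes tested (edgeR). In 16 of the 25 members the 3 PERK-cKO libraries lay above the 3 WT libraries, in 0 below, and in 9 they overlapped. Over all 5906 genes with at least 10 placed counts they lay above in 21.1% and below in 16.2%. Scaling to the 4 placed T cell markers gave 16 members higher and 0 lower and moved the higher share of all calls from 56.1% to 70.9%. The members that rose were the 3 OAS genes, 5 of 6 IFI200 genes, Gbp2b and Gbp6, Irgm2, Irf8, Ifit1bl1 and Trim30c. The STAT genes did not pass the test.

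**Figure D2:**
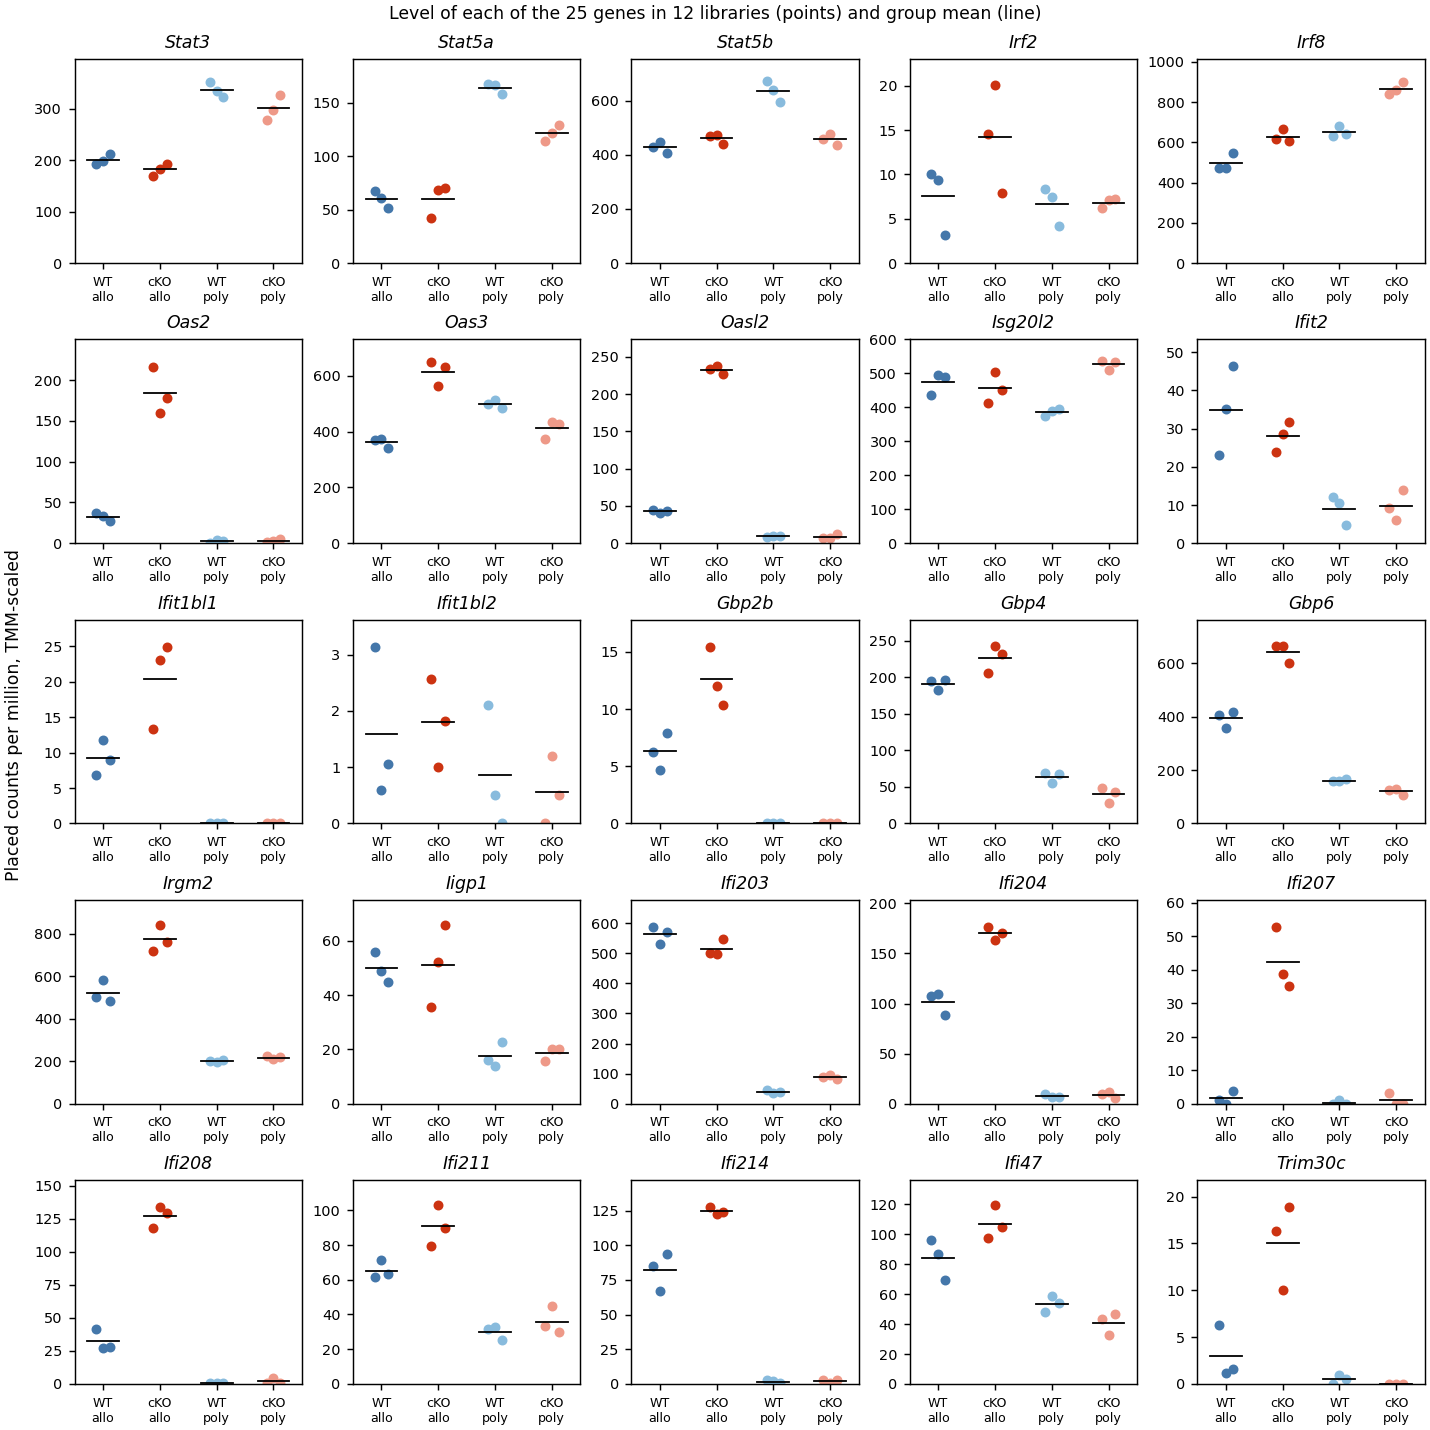
Level of each of the 25 members in placed CPM (y axis, linear and from 0, scaled per gene), with 1 point per library, a line at the group mean and colours for the 4 groups. Oasl2 sat at 227 to 237 CPM in the 3 PERK-cKO allogeneic libraries and at 40.5 to 45.2 CPM in the 3 WT allogeneic libraries.

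Oligoadenylate synthetases sense double-stranded RNA and make the second messenger that activates RNase L. Oas2 was at 37.0, 32.9 and 27.4 CPM in WT and 216, 160 and 178 CPM in PERK-cKO allogeneic libraries. All 3 PERK-cKO libraries lay above every WT library, with a log2 fold change of 2.52 ± 0.16 (SE, edgeR, adjusted p = 6.82e-12). Oasl2, an OAS-like protein, was at 45.2, 40.5 and 43.3 CPM in WT and 233, 237 and 227 CPM in PERK-cKO libraries. The groups did not overlap and the difference was 2.44 ± 0.13 (log2, SE, edgeR, adjusted p = 1.82e-13). Oas3 had a smaller difference, from 370, 374 and 339 CPM in WT to 648, 565 and 631 CPM in PERK-cKO libraries. Its log2 fold change was 0.77 ± 0.09 (SE, edgeR, adjusted p = 4.38e-07), and its counts came from a pair of entries that both rose, from summed counts of 1379 to 2749 and from 489 to 927. Oas2 and Oas3 lie next to each other on chromosome 5. Of their entries 95.3% and at least 90.7% lay inside the gene, introns included, whereas 35% of the Oasl2 entry did. On exons alone lay 31.5% of the Oas2 entry, at least 22% of the Oas3 entries and 35% of the Oasl2 entry. The macrophage marker sum was higher in the same 3 PERK-cKO libraries, and its part was not tested. In WT T cells, Oas3 was lower in allogeneic than in polyclonal libraries (339 to 374 against 485 to 512 CPM). In the same contrast the macrophage marker sum was higher (234 to 270 against 99.0 to 111 CPM), as were Oas2 and Oasl2.

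IFI200 proteins (the PYHIN family) bind DNA through their HIN domains and some of them act in the sensing of viral or damaged DNA. Ifi207 had 2, 0 and 7 counts in WT and 123, 77 and 58 counts in PERK-cKO allogeneic libraries. It was close to absent in WT T cells, with a log2 fold change of 4.57 ± 0.43 (SE, edgeR, adjusted p = 9.89e-09). Of its WT counts, 7 sat in WT allogeneic 3, and without that library 2 counts remained, a ratio of 71.2 (19.5 to 591, exact 95% counting interval). Ifi208 was at 41.4, 27.04 and 27.97 CPM in WT and 118, 134 and 130 CPM in PERK-cKO libraries, a log2 fold change of 1.99 ± 0.17 (SE, edgeR, adjusted p = 1.15e-09). Ifi204 went from 107, 110 and 88.7 to 177, 164 and 171 CPM (0.75 ± 0.12, log2, SE, edgeR, adjusted p = 2.99e-05). For both genes the groups did not overlap. Ifi214 was at 85.3, 67.0 and 93.9 CPM in WT and 127, 123 and 124 CPM in PERK-cKO libraries, again without overlap (0.60 ± 0.14, log2, SE, edgeR, adjusted p = 0.00137). Ifi211 was at 61.5, 71.1 and 63.3 and at 79.7, 103 and 90.01 CPM, and its difference of 0.48 ± 0.15 (log2, SE, edgeR, adjusted p = 0.0143) lost its call without WT allogeneic 1 (0.43, adjusted p = 0.0519), without PERK-cKO allogeneic 2 (0.40, adjusted p = 0.0627) and in DESeq2 (0.48, adjusted p = 0.0591). Ifi203 did not follow its neighbours. It was at 588, 530 and 572 CPM in WT and 501, 499 and 547 CPM in PERK-cKO libraries, which overlapped (-0.12, log2, edgeR, adjusted p = 0.318), and its promoter held the same 10 letters as those of Ifi207, Ifi208 and Ifi214. Reads of these near-identical paralogs can be split or dropped by the authors' counting, so the separation of single IFI200 genes is uncertain.

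Guanylate binding proteins (GBPs) and immunity-related GTPases (IRGs) coat and disrupt the vacuoles of intracellular pathogens after interferon exposure. Gbp6 was at 408, 359 and 416 CPM in WT and 667, 666 and 600 CPM in PERK-cKO allogeneic libraries, without overlap, a log2 fold change of 0.71 ± 0.09 (SE, edgeR, adjusted p = 1.63e-06). Its neighbour Gbp4 was at 195, 182 and 196 CPM in WT and 206, 243 and 232 CPM in PERK-cKO libraries, and its difference of 0.25 did not pass (log2, edgeR, adjusted p = 0.0756). It was called without PERK-cKO allogeneic 1 (0.32, adjusted p = 0.0379), under T cell marker scaling (0.36, adjusted p = 0.0215), with at least 10 counts in every library (0.29, adjusted p = 0.037) and with entries at least 90% inside the gene (0.27, adjusted p = 0.0496). Gbp2b had only 10, 8 and 15 counts in WT and 36, 24 and 17 in PERK-cKO libraries. It entered the test through its PERK-cKO libraries, which sets its direction, was called at the margin (1.0 ± 0.38, log2, SE, edgeR, adjusted p = 0.0437) and lost the call in 5 of 6 fits that left out a library, without WT allogeneic 1 or 2 (0.99 and 0.83, adjusted p = 0.0928 and 0.154) or PERK-cKO allogeneic 1, 2 or 3 (0.82, 1.06 and 1.12, adjusted p = 0.182, 0.0738 and 0.0513), in DESeq2 (1.01, adjusted p = 0.168), with no filter (0.98, adjusted p = 0.0607) and with all 12 libraries in one fit (1.0, adjusted p = 0.0687). Among the IRGs, Irgm2 was at 502, 584 and 482 CPM in WT and 716, 840 and 763 CPM in PERK-cKO libraries (0.57 ± 0.10, log2, SE, edgeR, adjusted p = 4.95e-05). That rise lay in an entry of which 12% was inside the gene (summed counts of 2540 and 4416). In the Irgm2 entry that lay wholly inside the gene, the summed counts were 167 and 182, and with only entries at least 90% inside their gene, a choice made after seeing the data, the difference was -0.02 (log2, edgeR, adjusted p = 0.977). Iigp1 was at 55.8, 48.8 and 44.9 CPM in WT and 35.6, 52.2 and 65.7 CPM in PERK-cKO libraries, which overlapped (0.03, log2, edgeR, adjusted p = 0.941). Ifi47, also a GTPase of the IRG family, was at 96.0, 87.0 and 69.7 and at 97.3, 120 and 105 CPM, without overlap, and did not pass (0.35, log2, edgeR, adjusted p = 0.0637). It was called without WT allogeneic 1 (0.45, adjusted p = 0.0339) or PERK-cKO allogeneic 1 (0.42, adjusted p = 0.0436), under T cell marker scaling (0.47, adjusted p = 0.0257) and with at least 10 counts in every library (0.40, adjusted p = 0.0448).

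IFIT proteins bind viral RNA through tetratricopeptide repeats. Ifit1bl1 had 11, 20 and 17 counts in WT and 31, 46 and 41 counts in PERK-cKO allogeneic libraries, without overlap. Its log2 fold change was 1.12 ± 0.34 (SE, edgeR, adjusted p = 0.0117), and without PERK-cKO allogeneic 3 the call was lost (0.97, adjusted p = 0.0619). Ifit2 was at 23.2, 35.3 and 46.4 CPM in WT and 24.0, 28.6 and 31.6 CPM in PERK-cKO libraries, with a value of -0.34 (log2, edgeR, adjusted p = 0.311). The WT libraries of Ifit2 spanned all 3 PERK-cKO libraries. Ifit1bl2 had 1 to 6 counts in each allogeneic library and was left out of the test by the filter on low counts. Trim30c, of the tripartite motif family, had 10, 2 and 3 counts in WT and 38, 20 and 31 counts in PERK-cKO libraries (2.34 ± 0.49, log2, SE, edgeR, adjusted p = 0.00063, and 3.37 without WT allogeneic 1). Isg20l2, an exonuclease named for its likeness to ISG20, was at 436, 495 and 490 CPM in WT and 414, 506 and 453 CPM in PERK-cKO libraries, which overlapped (-0.05, log2, edgeR, adjusted p = 0.753).

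IRF8 is a transcription factor of myeloid and B cell development that activated T cells also make, and IRF2 binds the same element as IRF1 and often opposes it. Irf8 was at 471, 474 and 549 CPM in WT and 615, 664 and 606 CPM in PERK-cKO allogeneic libraries. The groups did not overlap, and the difference of 0.34 ± 0.09 (log2, SE, edgeR, adjusted p = 0.00622) lost its call without WT allogeneic 2 (0.30, adjusted p = 0.0516). Only 28.8% of the entry that carried these counts lay inside Irf8. Markers of macrophages, dendritic cells and B cells, which express Irf8, were higher in the same PERK-cKO libraries, and their part was not tested. Polyclonal libraries held more Irf8, at 633 to 679 CPM in WT and 840 to 901 CPM in the PERK-cKO group. Their macrophage and B cell marker sums were lower than in the allogeneic libraries of the same genotype. Irf2 was at 10.04, 9.40 and 3.17 CPM in WT and 14.6, 20.1 and 7.91 CPM in PERK-cKO libraries, which overlapped (0.96, log2, edgeR, adjusted p = 0.0874), and among the fits that left out a library it was called in 1, without PERK-cKO allogeneic 3 (1.22, adjusted p = 0.0333). The STAT genes lie side by side on chromosome 11 and showed small differences. Stat3, which carries signals of IL-6 family cytokines, was at 192, 199 and 211 CPM in WT and 168, 184 and 193 CPM in PERK-cKO libraries (-0.14, log2, edgeR, adjusted p = 0.337). Stat5a and Stat5b carry the IL-2 signal. Stat5a was at 67.1, 60.5 and 51.7 CPM in WT and 42.0, 68.3 and 69.9 CPM in PERK-cKO libraries (0.00, log2, edgeR, adjusted p = 0.999), and Stat5b at 431, 447 and 406 and at 469, 475 and 440 CPM (0.11, log2, edgeR, adjusted p = 0.368). In all 3 STAT genes the genotypes overlapped.

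**Figure D3:**
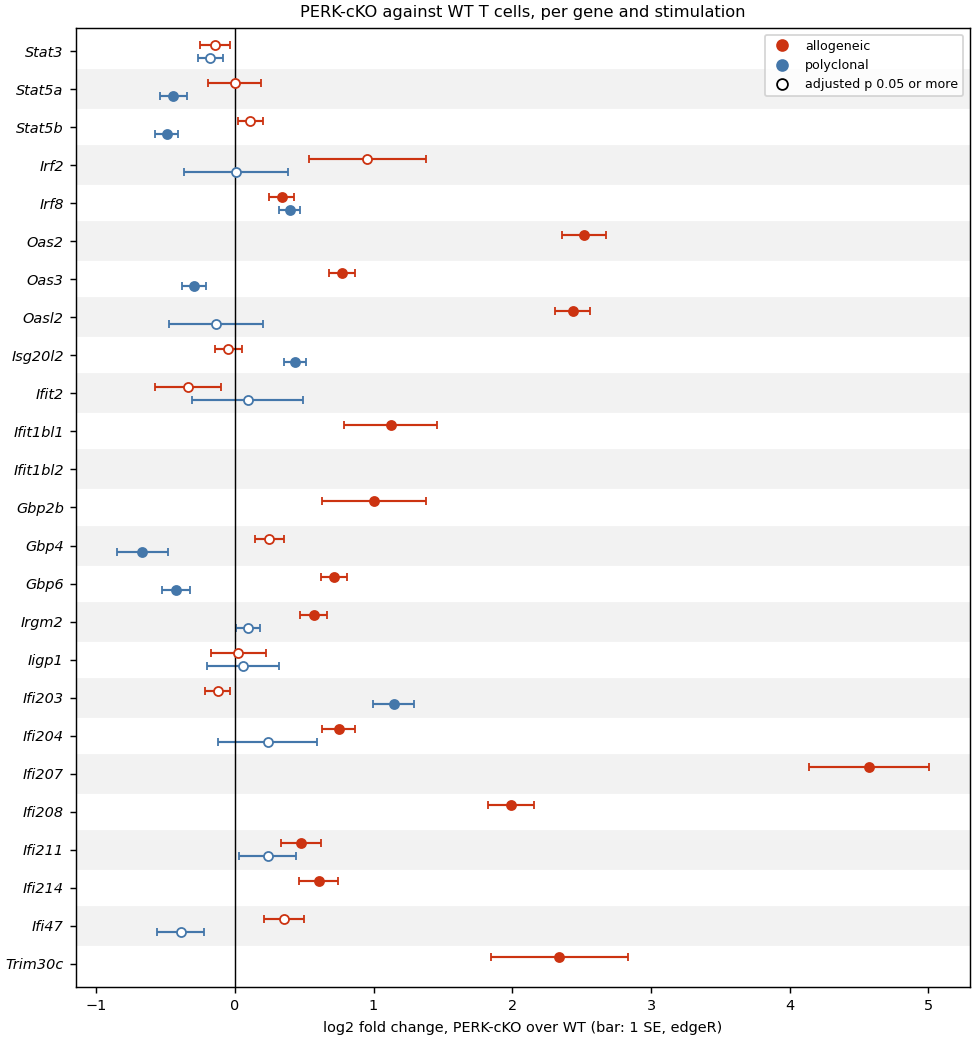
Log2 fold change of PERK-cKO over WT T cells for each member tested, with 1 standard error, after allogeneic and after polyclonal stimulation, with open circles for an adjusted p of 0.05 or more. After allogeneic stimulation the points reached 4.57 at Ifi207 and the STAT genes stood near 0, whereas after polyclonal stimulation the values ran from -0.67 at Gbp4 to 1.14 at Ifi203.

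After polyclonal stimulation the same contrast of genotypes had a different make-up. Of 17 members tested with edgeR's quasi-likelihood test, 3 were called higher in the PERK-cKO group and 5 lower, against 31.8% of all 3937 genes tested called, 16% higher and 15.8% lower. The member median was 0.01 (log2) and that of all genes 0.00. PERK-cKO libraries lay above WT in 4 of 25 members and below in 6, and in 15 they overlapped, while over all 5906 genes they lay above in 17.4% and below in 17.3%. Basophil and mast cell and NK cell markers were higher in the same 3 PERK-cKO libraries, and their part in these values was not tested. Scaling to the 4 placed T cell markers, whose summed level was 3550 to 3762 CPM in WT and 4816 to 5109 CPM in PERK-cKO polyclonal libraries, moved the median of all genes to -0.41 and the higher share of all calls from 50.3% to 6.06%. Under that scaling 1 member was higher and 8 were lower. The 4 markers did not move together: Thy1, which made up most of the sum, was higher in the PERK-cKO polyclonal group (0.64, log2, edgeR, adjusted p = 1.35e-05), as was Lck (0.26, adjusted p = 0.0207), while Cd5 was lower (-0.58, adjusted p = 6.4e-05). Cd8b1, a marker of CD8 T cells, had 14, 17 and 4 counts in WT and 53, 31 and 28 in PERK-cKO polyclonal libraries, through which it entered the test, and its part in the results was not tested. After allogeneic stimulation Cd5 (-0.80) and Lck (-0.52) were lower in the PERK-cKO group and Thy1 was at 0.05 (log2, edgeR, adjusted p = 1.1e-06, 8.59e-05 and 0.722).

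Stat5a and Stat5b were lower in the PERK-cKO group. Stat5b was at 673, 640 and 596 CPM in WT and 459, 478 and 435 CPM in PERK-cKO polyclonal libraries. The groups did not overlap, and the value fell by 0.49 on the log2 scale (SE 0.08, edgeR, adjusted p = 0.000333). Stat5a went from 168, 167 and 158 CPM to 114, 122 and 130 CPM, also without overlap (-0.44 ± 0.10, log2, SE, edgeR, adjusted p = 0.00273). Stat3 was at 351, 335 and 323 CPM in WT and 279, 297 and 327 CPM in PERK-cKO libraries, which overlapped (-0.18, log2, edgeR, adjusted p = 0.154). Gbp4 and Gbp6 were lower as well. Gbp4 was at 69.3, 55.7 and 67.4 CPM in WT and 48.8, 28.6 and 43.6 CPM in PERK-cKO libraries (-0.67 ± 0.18, log2, SE, edgeR, adjusted p = 0.0115), and Gbp6 at 158, 158 and 167 and at 125, 131 and 108 CPM (-0.42 ± 0.10, log2, SE, edgeR, adjusted p = 0.00523). For both the genotypes were apart, and with entries at least 50% inside the exons Gbp4 was not called (-0.33, edgeR, adjusted p = 0.292). Oas3 fell by 0.29 on the log2 scale, from 500, 512 and 485 CPM to 373, 436 and 426 CPM (SE 0.09, edgeR, adjusted p = 0.0171), and was not called when scaled by library size only (-0.24, adjusted p = 0.167).

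Ifi203, Irf8 and Isg20l2 were higher in the PERK-cKO group in the polyclonal cultures. Ifi203 was at 45.7, 35.8 and 37.9 CPM in WT and 87.95, 97.1 and 82.1 CPM in PERK-cKO libraries, a log2 fold change of 1.14 ± 0.15 (SE, edgeR, adjusted p = 2.78e-05). Irf8 went from 633, 679 and 643 CPM to 840, 860 and 901 CPM (0.40 ± 0.08, log2, SE, edgeR, adjusted p = 0.00114), and this direction was lost under T cell marker scaling (-0.01). In both genes every PERK-cKO library lay above every WT library. Isg20l2 was at 375, 390 and 394 CPM in WT and 538, 510 and 532 CPM in PERK-cKO libraries (0.43 ± 0.08, log2, SE, edgeR, adjusted p = 0.000641, and 0.02 under T cell marker scaling). Oasl2, with 8.93 to 9.95 CPM in WT and 7.04 to 12.3 CPM in PERK-cKO libraries, had a value of -0.13 (log2, edgeR, adjusted p = 0.808). Oas2, Ifi207, Ifi208, Ifi214, Gbp2b, Ifit1bl1, Ifit1bl2 and Trim30c had 0 to 9 counts in each polyclonal library and were not tested in this comparison.

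Whether the genotype difference depended on the stimulation was tested as an interaction over all 12 libraries, that is, the PERK-cKO minus WT difference after allogeneic stimulation less the same difference after polyclonal stimulation, on the log2 scale. Of 24 members tested with edgeR's quasi-likelihood test, 9 were called positive and 2 were called negative. Over all 4402 genes 33.9% were called, 16.7% positive and 17.2% negative. Called or not, 19 of the 24 members had a value above 0. The member median was 0.66, or 0.49 over the 21 members without a group at 0 in every library, and that of all genes was 0.01. T cell marker scaling moved the median of all genes to 0.55 and the positive share of all calls from 49.2% to 91.2%, with 14 members called positive and 1 called negative. All 3 OAS genes were positive: Oasl2 at 2.56 ± 0.29 (SE, edgeR, adjusted p = 4.32e-07), Oas2 at 2.35 ± 0.64 (SE, adjusted p = 0.00607) and Oas3 at 1.05 ± 0.12 (SE, adjusted p = 7.93e-07). Without WT polyclonal 2 the value of Oas2 was 1.70 and lost its call (edgeR, adjusted p = 0.127). Gbp6 (1.12 ± 0.14, SE, edgeR, adjusted p = 1.2e-06) and Gbp4 (0.89 ± 0.20, SE, adjusted p = 0.0013) were positive too, and both were lower in PERK-cKO than in WT polyclonal libraries. With entries at least 50% inside the exons the call of Gbp4 was lost (0.50, edgeR, adjusted p = 0.126). Stat5b (0.59 ± 0.12, SE, edgeR, adjusted p = 0.000418) and Ifi47 (0.73 ± 0.22, SE, adjusted p = 0.0123) were also called. Irgm2 was called at 0.45 (edgeR, adjusted p = 0.00895), and 0.62 with entries at least 90% inside the gene was not (adjusted p = 0.289). Ifi203 was negative at -1.29 ± 0.15 (SE, edgeR, adjusted p = 7.71e-07), and Isg20l2 at -0.50 ± 0.12 (SE, adjusted p = 0.00326), which T cell marker scaling turned to 0.05. Trim30c, among the 9 positive, entered the test through its PERK-cKO allogeneic libraries, which fixes its sign, and with its PERK-cKO polyclonal libraries all at 0 the fitted value depends on the prior count. Its call held without WT allogeneic 1, PERK-cKO allogeneic 2 or WT polyclonal 1 and was lost in the 9 other fits that left out a library (edgeR, adjusted p = 0.0535 to 0.192). Irf8, higher in PERK-cKO T cells under both stimulations, had an interaction of -0.07 (edgeR, adjusted p = 0.671), and 0.46 under T cell marker scaling.

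**Figure D4:**
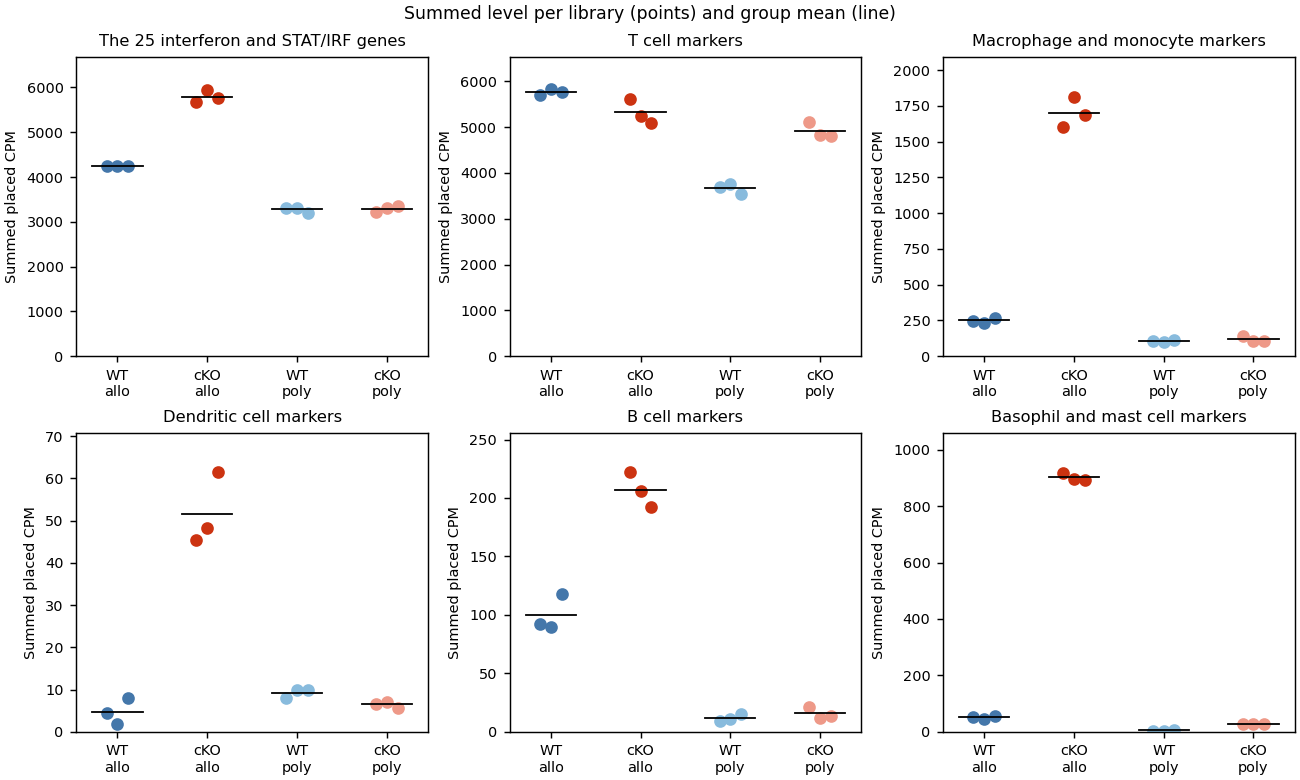
Summed placed CPM of all 25 members in each library (points) with the group mean (line), and the sums of T cell, macrophage and monocyte, dendritic cell, B cell, and basophil and mast cell markers in the same libraries. The member sum was 5669 to 5934 CPM in PERK-cKO allogeneic libraries, above the 4245 to 4252 CPM of WT allogeneic libraries, where the macrophage and monocyte marker sum was also lower.

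Allogeneic and polyclonal stimulation were then compared within each genotype, a contrast in which the culture system, the APCs and, by the labels, the day differ together and cannot be told apart. In WT T cells, 15 of 21 members tested were called higher and 5 lower after allogeneic stimulation (edgeR), against 48.6% of all 3985 genes called, 24.5% higher and 24.1% lower. In the PERK-cKO group, 19 of 24 members were called higher and 3 lower, against 51.4% of 4159 genes called, 27.7% higher and 23.8% lower. Oas2, Ifi208, Ifi214 and Ifit1bl1, in WT also Ifit2, and in the PERK-cKO group also Ifi207, Gbp2b and Trim30c, entered the test through their allogeneic libraries, which sets their direction. The member medians were 1.35 and 2.12 (log2), and those of all genes -0.02 and 0.00. Over the 25 members, allogeneic libraries lay above polyclonal libraries in 17 and below in 5 in WT, and above in 19 and below in 4 in PERK-cKO T cells, against 24% above and 21.5% below in WT, and 26.9% and 21.6% in PERK-cKO T cells, over all 5906 genes. T cell marker scaling moved the median of all genes to -0.64 in WT and -0.11 in PERK-cKO T cells and the higher share of calls from 50.3% to 10.3% in WT, with 13 members higher and 6 lower, and 19 higher and 4 lower in the PERK-cKO group. Both comparisons use the same groups as the genotype comparisons, so their values are set side by side and not counted as separate support. The highest group by mean level was PERK-cKO allogeneic for 18 members, WT polyclonal for 3 (Stat3, Stat5a and Stat5b), WT allogeneic for 2 and PERK-cKO polyclonal for 2.

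**Figure D5:**
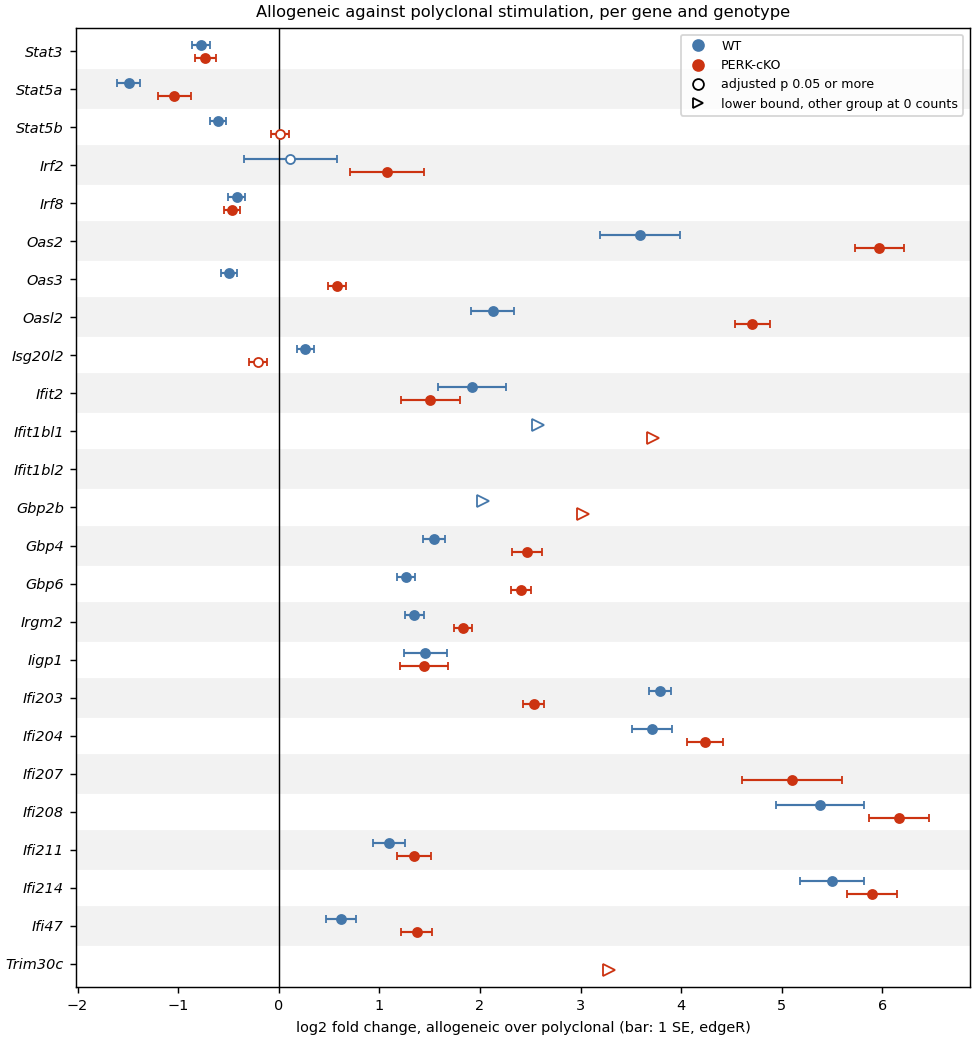
Log2 fold change of allogeneic over polyclonal stimulation for each member tested, with 1 standard error, in WT and in PERK-cKO T cells, with open circles for an adjusted p of 0.05 or more and triangles for lower bounds where the polyclonal libraries were all at 0. Among members with a polyclonal count Ifi214 stood highest in WT at 5.50 and Ifi208 in PERK-cKO T cells at 6.17 (members drawn as lower bounds could rank above them, and the value of Ifi208 leans on 1 polyclonal library), and Stat5a was lowest in both, at -1.49 and -1.04.

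Ifi203, Ifi204 and Ifi211, IFI200 genes with counts under both stimulations, were higher after allogeneic stimulation in both genotypes, whereas Ifi207, Ifi208 and Ifi214 had 0 to 7 counts in each polyclonal library. Ifi208 was at 0.50 to 1.05 CPM in WT and 0.51 to 4.17 CPM in PERK-cKO polyclonal libraries, far below its allogeneic levels. Its log2 fold change was 5.38 in WT (edgeR, adjusted p = 4.77e-07) and 6.17 in PERK-cKO T cells (adjusted p = 6.53e-12). In the latter 7 of the 10 polyclonal counts sat in PERK-cKO polyclonal 2, without which the ratio was 178 (60.6 to 864, exact 95% counting interval), and with entries at least 90% inside the gene the log2 value was 4.76. Ifi214, at 0.52 to 2.64 CPM in the polyclonal libraries of both genotypes, rose by 5.50 and 5.90 (log2, edgeR, adjusted p = 1.64e-08 and 9.91e-13), and in its entry wholly inside the gene the WT polyclonal libraries were at 0. Ifi204 was at 6.15 to 11.3 CPM in polyclonal libraries and rose by 3.71 in WT and 4.24 in PERK-cKO T cells (log2, edgeR, adjusted p = 7.94e-09 and 9.29e-13). Ifi203 rose by 3.79 in WT and 2.53 in PERK-cKO T cells (log2, edgeR, adjusted p = 2.28e-11 and 5.73e-13). Ifi211 had the smallest rise of the family, 1.09 and 1.35 (log2, edgeR, adjusted p = 9.25e-05 and 2.97e-06). The allogeneic libraries of WT also had higher marker sums of macrophages (234 to 270 against 99.0 to 111 CPM) and B cells (89.9 to 118 against 9.45 to 15.04 CPM) than the polyclonal libraries, and the part of these cells was not tested.

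Among the OAS genes, Oas2 was at 0.53, 4.48 and 2.59 CPM in WT and 1.76, 2.38 and 4.62 CPM in PERK-cKO polyclonal libraries. Its rise on allogeneic stimulation was 3.59 in WT (edgeR, adjusted p = 7.79e-06, and 4.27 without WT polyclonal 2) and 5.97 in PERK-cKO T cells (adjusted p = 5.73e-13). Oasl2 rose by 2.13 and 4.71 (log2, edgeR, adjusted p = 3.06e-06 and 1.74e-13). Oas3 went opposite ways in the genotypes, -0.50 in WT (log2, edgeR, adjusted p = 0.000173) and 0.58 in PERK-cKO T cells (adjusted p = 4.34e-05). The GTPases rose in both. Gbp6 changed by 1.26 and 2.41, Gbp4 by 1.54 and 2.47, Irgm2 by 1.35 and 1.83 and Iigp1 by 1.46 and 1.44 on the log2 scale, with the largest adjusted p of these at 9.8e-05 for Iigp1 in WT (edgeR). Ifi47 rose by 0.62 in WT (edgeR, adjusted p = 0.00393, and -0.00 under T cell marker scaling) and by 1.37 in PERK-cKO T cells (adjusted p = 6.84e-07).

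Gbp2b and Ifit1bl1 had 0 counts in all 6 polyclonal libraries. Against a floor of 3 counts per library, Gbp2b was at least 4.08-fold higher after allogeneic stimulation in WT, and at least 8.14-fold higher in the PERK-cKO group, and Ifit1bl1 at least 5.97-fold and at least 13.2-fold higher. Trim30c had 0 counts in the PERK-cKO polyclonal libraries and was at least 9.73-fold higher in the PERK-cKO allogeneic libraries. Ifit2 was at 4.67 to 12.1 CPM in WT and 5.96 to 13.9 CPM in PERK-cKO polyclonal libraries, below every allogeneic library of its genotype. It rose by 1.92 in WT (log2, edgeR, adjusted p = 0.000406) and 1.51 in PERK-cKO T cells (adjusted p = 0.000311). Ifi207 had 7, 0 and 0 counts in PERK-cKO polyclonal libraries and rose by 5.10 in PERK-cKO T cells (log2, edgeR, adjusted p = 1.1e-07). All 7 counts sat in PERK-cKO polyclonal 1, and without that library the group is at 0 and Ifi207 was at least 25.4-fold higher.

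The STAT genes and Irf8 were lower after allogeneic stimulation. Stat5a fell by 1.49 in WT and by 1.04 in PERK-cKO T cells on the log2 scale (edgeR, adjusted p = 2.58e-07 and 3.52e-05), and Stat3 by 0.78 and 0.73 (adjusted p = 8.48e-06 and 9.26e-06). Stat5b fell by 0.60 on the log2 scale in WT (edgeR, adjusted p = 4.24e-05), whereas its value in PERK-cKO T cells was 0.01 (adjusted p = 0.917). With the WT polyclonal libraries at 596 to 673 CPM and the other 9 at 406 to 478 CPM, the WT polyclonal group stood apart from the rest for Stat5b. Irf8 fell by 0.42 in WT and by 0.46 in PERK-cKO T cells on the log2 scale (edgeR, adjusted p = 0.00132 and 0.000126). Irf2 was called in PERK-cKO T cells (1.07, log2, edgeR, adjusted p = 0.0209), but not without PERK-cKO allogeneic 2 (0.76, adjusted p = 0.142), without PERK-cKO polyclonal 1 (0.99, adjusted p = 0.0634) or in DESeq2 (1.08, adjusted p = 0.081). Isg20l2 was called in WT (0.26, log2, edgeR, adjusted p = 0.0202), lost the call without WT allogeneic 2 or 3 (0.24 in both, adjusted p = 0.0656 and 0.0658) and without WT polyclonal 1 or 2 (0.24 and 0.26, adjusted p = 0.0861 and 0.0526), and turned to -0.36 under T cell marker scaling. In PERK-cKO T cells Isg20l2 was lower, without overlap, and not called (-0.21, log2, edgeR, adjusted p = 0.0682). There it was called without PERK-cKO allogeneic 2 (-0.28, adjusted p = 0.0205) and by library size only (-0.25, adjusted p = 0.0288). T cell marker scaling (-0.31, adjusted p = 0.0149) and entries at least 50% inside the exons (-0.26, adjusted p = 0.0131) also gave a call.

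Other genes of the interferon pathway were taken from a list of genes that are not members. Of 45 other interferon-stimulated genes, 20 were placed and 17 tested in the allogeneic comparison of genotypes, with 11 called higher in the PERK-cKO group and 1 lower (edgeR), against 18.5% and 14.5% of all genes tested. Samd9l, an antiviral restriction factor, was at 922, 1108 and 1103 CPM in WT and 1854, 2327 and 2122 CPM in PERK-cKO libraries (1.01, log2, edgeR, adjusted p = 3.26e-08). Lgals3bp, a secreted glycoprotein, went from 335, 319 and 336 CPM to 945, 784 and 844 CPM (1.38, log2, edgeR, adjusted p = 2.94e-11), and Herc6, the mouse ISG15 ligase, from 77.8, 96.4 and 105 CPM to 196, 232 and 202 CPM (1.18, log2, adjusted p = 8.3e-08). In each the groups were apart. The others that rose were Slfn5 (1.64), Ddx60 (1.87), Znfx1 (0.92), Helz2 (0.67), Trim25 (0.51), Sp100 (0.39) and Slfn1 (0.36, all log2, edgeR), and Parp12, with 9, 3 and 12 counts in WT and 28, 29 and 21 in PERK-cKO libraries, entered the test through the latter, which sets its direction. Ms4a4b, a membrane protein of T cells, fell by 0.75 on the log2 scale (edgeR, adjusted p = 5.67e-06). In the polyclonal comparison 2 of 14 tested were higher, near the 16% of all genes, Lgals3bp at 0.37 (log2, edgeR, adjusted p = 0.00346) and Ms4a4b at 1.88 (adjusted p = 2.74e-06).

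Upstream in the pathway, the receptor chains Ifnar1 (-0.13, log2, edgeR, adjusted p = 0.318), Ifnar2 (0.10, adjusted p = 0.61) and Ifngr1 (0.12, adjusted p = 0.376) did not pass in the allogeneic comparison, while Ifngr1 was higher in the PERK-cKO group in the polyclonal cultures, from 33.2 to 47.3 CPM in WT to 65.5 to 93.7 CPM (0.96, adjusted p = 0.000514). Ifnlr1, a receptor chain for type III interferon, had 1 count in each WT and 12 to 18 counts in each PERK-cKO allogeneic library. The genes for IFN-γ and IFN-β, Ifng and Ifnb1, had no placed entry. Jak2, a kinase of the IFN-γ receptor, was at 550, 576 and 599 CPM in WT and 951, 969 and 915 CPM in PERK-cKO allogeneic libraries (0.72, log2, edgeR, adjusted p = 4.43e-07). After polyclonal stimulation it was at 1499, 1502 and 1483 CPM in WT and 1065, 866 and 925 CPM in PERK-cKO libraries (-0.67, log2, edgeR, adjusted p = 2.78e-05). The genotypes were apart in opposite directions, with an interaction of 1.37 (edgeR, adjusted p = 8.1e-09). Tyk2, a kinase of the type I interferon receptor, was at 396, 364 and 379 CPM in WT and 458, 442 and 433 CPM in PERK-cKO allogeneic libraries and was called at the margin (0.23, log2, edgeR, adjusted p = 0.0498). Of 16 genes of antigen presentation, 7 were tested, and Nlrc5 (0.49), Tap2 (0.24), H2-Q4 (0.81) and H2-K1 (0.69) were higher in the PERK-cKO group in the allogeneic cultures (log2, edgeR), 4 of 7 against 18.5% of all genes. H2-K1 and H2-Q4 encode class I molecules of a polymorphic region, and the APC strain was not given. In the polyclonal comparison Nlrc5 (0.40) and Tap2 (0.36) were higher and H2-Q4 lower (-0.34, all log2, edgeR), against 16% of all genes higher and 15.8% lower. Of 3 genes of nucleic acid sensing tested, Ddx58, which encodes RIG-I, was higher (0.84) and Aim2, an IFI200-related DNA sensor, lower (-0.99, both log2, edgeR). In the polyclonal comparison Ddx58 was higher at 0.28 and Ikbke, a kinase upstream of IRF3, lower at -0.99 (both log2, edgeR). Ptpn6, a negative regulator, had 12, 16 and 15 counts in WT and 13, 5 and 1 in PERK-cKO allogeneic libraries, and the chemokine Cxcl11 had 3, 1 and 1 and 22, 12 and 15 counts. Each entered the test through the group in which it was high, which fixes its direction.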

How the data were processed

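Sample labels put the 12 bulk RNA-Seq libraries in 4 groups of 3. The authors deposited raw counts of read pairs per entry, made with featureCounts 2.0.1 over the exons of GENCODE M27 (GRCm39), by gene name and without strand per the file headers, whereas the submitters' processing notes name mm10. The aligner is not given in the sources used here. Counts on an entry can hold reads from outside the member's exons, and only Ifit2 had an entry listed under its own symbol. Positions were laid as printed on GRCm38 exons (GENCODE M21) without conversion, which placed 13386 of 53762 entries on 10703 genes with 50.44% of all counts. A member's entries overlay 50 to 1693 bp of its exons (median 529). No count column was without a sample.

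Counts were filtered with filterByExpr, scaled with TMM and tested with edgeR 4.0.16 (glmQLFit, glmQLFTest, R 4.3.3), with Benjamini-Hochberg adjustment over all placed genes and a threshold of 0.05. Genotypes were compared within each stimulation and stimulations within each genotype on 6 libraries, and the interaction on 12. The fits were tested on simulated data with 200 altered genes. DESeq2 1.42.0, other scalings and filters, stricter placement, a replicate block and leaving out each library were tried as alternatives. Replicates of a group differed by more than sampling noise in every pair. Floors of 3 counts and count limits cover counting error only.

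The members and gene lists were chosen with earlier results of these data known. Members called in a genotype comparison or in the interaction, and canonical STAT and IRF members, were to be named with values per library, and other genes of the pathway only from the lists, where called or where a receptor or kinase. The remaining members were named after their values were seen.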

Additional observations from a re-analysis of the deposited data

Results flagged for a closer look

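The genotype difference of 11 members differed between the stimulations in the interaction test (edgeR, adjusted p under 0.05). As the allogeneic less the polyclonal difference on the log2 scale, the values were 2.56 for Oasl2, 2.35 for Oas2, 1.05 for Oas3, 1.12 for Gbp6, 0.89 for Gbp4, 0.73 for Ifi47, 0.59 for Stat5b, 0.45 for Irgm2, -0.50 for Isg20l2 and -1.29 for Ifi203. For Trim30c the fitted value of 5.48 (adjusted p = 0.0408) depends on the prior count, since the PERK-cKO polyclonal libraries had 0 counts, and it was called in 3 of the 12 fits that left out 1 library. The marker sums of macrophages, dendritic cells, B cells and basophils were highest in the PERK-cKO allogeneic libraries, and their part in these differences was not tested. Groups of 3 libraries were too small for a test of single outlying libraries.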

How the results depend on the processing

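The count of members called moved by less than 1.5 times under DESeq2, RLE factors, library size only, no filter and all 12 libraries in one fit in every comparison. Requiring entries at least 50% inside the exons left few members tested. It gave 2 higher of 5 tested in the allogeneic comparison of genotypes, and 1 higher and 0 lower of 3 in the polyclonal comparison. For allogeneic against polyclonal stimulation it gave 4 higher and 0 lower of 4 in WT, and 4 higher and 1 lower of 5 in the PERK-cKO group. In the interaction it gave 0 positive and 1 negative of 5. Entries at least 90% inside the gene, an alternative chosen after seeing the data, gave 10 higher and 0 lower of 16 tested in the allogeneic comparison, 2 higher and 2 lower of 8 in the polyclonal comparison, 10 higher and 1 lower of 12 in WT, 15 higher and 0 lower of 16 in the PERK-cKO group, and 4 positive and 2 negative of 16 in the interaction. Over all genes tested, the first of these placements called 15.9% to 30.2% higher and 15.5% to 26.9% lower over the 5 comparisons, and the second 14.2% to 26.7% and 14.6% to 24.2%, of which 14.2% and 16.2% in the polyclonal comparison. At least 10 counts in every library left 12 higher in PERK-cKO T cells for the stimulations. T cell marker scaling gave 1 higher and 8 lower in the polyclonal comparison and 14 positive and 1 negative in the interaction.

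Directions reversed for Irgm2 in the allogeneic comparison (-0.017, entries at least 90% inside the gene) and, under T cell marker scaling, for Irf8 (-0.012) and Irgm2 (-0.31) in the polyclonal comparison, for Ifi47 (-0.0029) and Isg20l2 (-0.36) between stimulations in WT, and for Irf8 (0.46) and Isg20l2 (0.047) in the interaction. The causes were not tested. Members not called in either fit were not counted as reversed.

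Leaving out each library gave 12 to 15 members higher and 0 lower in the allogeneic comparison, 3 higher and 5 lower in the polyclonal comparison, 14 to 16 higher and 5 lower in WT, 18 to 19 higher and 3 to 4 lower in the PERK-cKO group, and 7 to 9 positive and 2 negative in the interaction. Replicate numbers were shared between groups but same-numbered libraries deviated together with correlations of only -0.101 to 0.088, so they share only a number. With the replicate block 13 members were higher and 0 lower in the allogeneic comparison, 3 and 5 in the polyclonal comparison, 15 and 5 in WT, 19 and 3 in PERK-cKO T cells, and 9 and 2 in the interaction. Under the block Gbp2b lost its call in the allogeneic comparison (0.996, edgeR, adjusted p = 0.0674), and no other call of a member changed.

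Depth limits the low members most: in a library of 1568431 placed counts, 3 counts are 1.91 CPM, and the filter on low counts left Ifit1bl2 out of the edgeR tests reported above.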

Other observations

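Of 8 members with several entries, 6 had entries that lay the same way between the genotypes after allogeneic stimulation. After polyclonal stimulation 6 did, counting Gbp2b with all its entries at 0, and Ifi214 and Irgm2 did not. Levels are given here as CPM of the counts summed over the 3 libraries of a group, in WT and then PERK-cKO T cells. For Ifi208 the entries were at 10.5 and 37.1 and at 20.3 and 88.9 after allogeneic stimulation. For Ifi214 they were at 19.4 and 30.6 and at 60.5 and 93.9. The pair of Oas3 entries was at 257 and 460 and at 91.3 and 155 after allogeneic stimulation, and at 373 and 313 and at 126 and 107 after polyclonal stimulation. The Gbp4 entries were at 81.9 and 92.9 and at 103 and 132 after allogeneic stimulation and, after polyclonal stimulation, at 29.5 and 25.2 and at 34.6 and 17.2. The Ifit2 entries were at 12.9 and 11 and at 21.6 and 16.5 after allogeneic stimulation. For Gbp2b, on few counts, they differed, at 1.12 and 0.669, at 3.36 and 8.02 and at 1.68 and 4.18. For Irgm2 the entries differed too, at 31.2 and 30.4 in the one inside the gene and at 474 and 738 in the one mostly outside it. After polyclonal stimulation these were at 18 and 12.4 and at 183 and 211. The Ifi214 entries, on few polyclonal counts, were then at 0 and 0.522 and at 1.71 and 1.57.

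Ifi203 stood apart from its neighbours in both entries, at 453 and 444 and at 92.2 and 68.2 after allogeneic stimulation, and at 35.3 and 81.3 and at 4.45 and 9.75 after polyclonal stimulation. It was the member with the largest negative interaction.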
